A study of Mus musculus with 14 samples.

Results

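The genes described here are 36 mouse genes of the interferon response and of major histocompatibility complex (MHC) class I antigen presentation. They were taken as a list of symbols that was chosen with earlier results of these data known. Counts of the 36 genes set beside shares of all genes are therefore descriptions, not tests of an independent list. All 36 were found among the 28022 genes of the deposited count table, and all 36 passed the filter on low counts in each comparison. The list holds 2 receptor subunits, 5 signalling and transcription factors, 2 sensors of viral RNA, 17 antiviral effectors, 2 guanylate-binding proteins, 5 genes that supply peptides to class I molecules and 3 genes that encode the class I molecules themselves. Each gene was followed across 7 conditions of 2 RNA-seq libraries each, 14 libraries in all.

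All 7 conditions carry the strain label C57BL/6J. Fib were mouse embryonic fibroblasts that had received no reprogramming factor. 2D-iHepSC were induced hepatic stem cells, obtained from such fibroblasts with lentiviral Oct4 and Hnf4α and grown as a monolayer. 2D-iHepSCiEC were the same cells in monolayer with induced endothelial cells (iECs), which the study's methods derive from a line of human fibroblasts with lentiviral ETV2. 3D-iHA were iHepSC spheroids embedded in collagen I and Matrigel without iECs, and 3D-iHEA were such spheroids with iECs, the hepatic endothelial assembloid. Adult-Liver and Fetal-Liver were whole mouse tissue. The study describes all 4 cultures as kept in one medium, a mix of hepatic and endothelial media with oncostatin M, and the hydrogels were kept on a shaker, so that format, matrix and shaking cannot be told apart. Nothing in the labels ties the 2 libraries of a condition to separate cultures or animals, each being described as replicate 1, so the p-values measure the spread between libraries, which may be technical.

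The libraries held 20851489 to 35143325 gene counts. Levels are given as CPM, a gene's counts relative to the size of its library, after TMM scaling. TMM is a method that sets libraries to a common level from the bulk of their genes. By library totals, before this scaling, a count of 3 stood for 0.0854 to 0.144 CPM. The gene with the most counts took 22.5% to 23.6% of each adult liver library and 1.01% to 2.08% of every other library. Human reads that aligned to the mouse genome would be counted with the mouse reads in the co-cultures, and their share was not measured here. The summed level of 16 macrophage and leukocyte markers was 25.9 to 32.4 CPM in the culture libraries, 6.78 to 7.26 CPM in Fib, 415 to 485 CPM in Fetal-Liver and 1942 to 2031 CPM in Adult-Liver. *Ptprc*, which marks leukocytes, had 0 to 3 counts in each culture library. The hepatocyte markers summed to 279 to 388 CPM in the cultures, 11620 to 14550 CPM in Fetal-Liver and 595000 to 634500 CPM in Adult-Liver. After TMM scaling, CPM are not shares of a library. In Adult-Liver these markers held 8967433 of 34323473 counts in replicate 1 and 8759577 of 35022256 in replicate 2. Most of the sum in the cultures came from *Apoa1*, at 198 to 310.5 CPM, whereas *Alb*, the transcript of albumin, was at 0.0746 to 5.67 CPM. The upper *Alb* value came from 2D-iHepSC replicate 1 alone, with 210 counts, against 2 to 20 counts in each of the other culture libraries. In bulk samples, fewer cells of a type and less RNA per cell cannot be told apart.

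Interferons are secreted proteins that warn cells of viral infection. Type I interferons bind a receptor that contains *Ifnar1* and activate a complex that contains *Stat2* and *Irf9*, which binds a promoter element called the ISRE and switches on antiviral genes, whereas interferon gamma binds a receptor that contains *Ifngr1* and acts on a different element called GAS. Interferon signalling also raises the machinery of class I presentation, in which the proteasome cuts proteins into peptides, *Tap1* and *Tap2* carry the peptides into the endoplasmic reticulum, *Tapbp* loads them, and *B2m* with a heavy chain such as *H2-K1* or *H2-D1* shows them at the cell surface to cytotoxic T cells.

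Across the 7 conditions most of the 36 genes stood lowest in Fetal-Liver or Fib and highest in a 3D culture. By condition mean after TMM scaling, 19 genes were highest in 3D-iHA, 11 in Adult-Liver, 4 in 3D-iHEA, 1 in Fib (*Ifnar1*) and 1 in 2D-iHepSC (*Rsad2*). The lowest mean fell in Fetal-Liver for 21 genes, in Fib for 14 and in 2D-iHepSC for *Psmb8*. With library totals in place of TMM, a setting added after seeing the data, 21 genes were highest in 3D-iHA and 6 each in 3D-iHEA and Adult-Liver, and 4 were lowest in Adult-Liver. After TMM scaling, the mean of the 36 z-scores, each taken over the 14 libraries, was -1.42 and -1.35 in the Fetal-Liver libraries and -0.95 and -0.98 in Fib. It was -0.01 and 0.07 in 2D-iHepSC, 0.18 and 0.21 in 2D-iHepSCiEC, 0.83 and 0.88 in 3D-iHA, 0.81 and 0.77 in 3D-iHEA, and 0.47 and 0.49 in Adult-Liver. With library totals the Adult-Liver libraries stood at -0.28 and -0.24, below the 2D libraries, whereas every 3D library stood above every 2D library, and Fib and Fetal-Liver below all cultures, under either scaling.

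**Figure D1:**
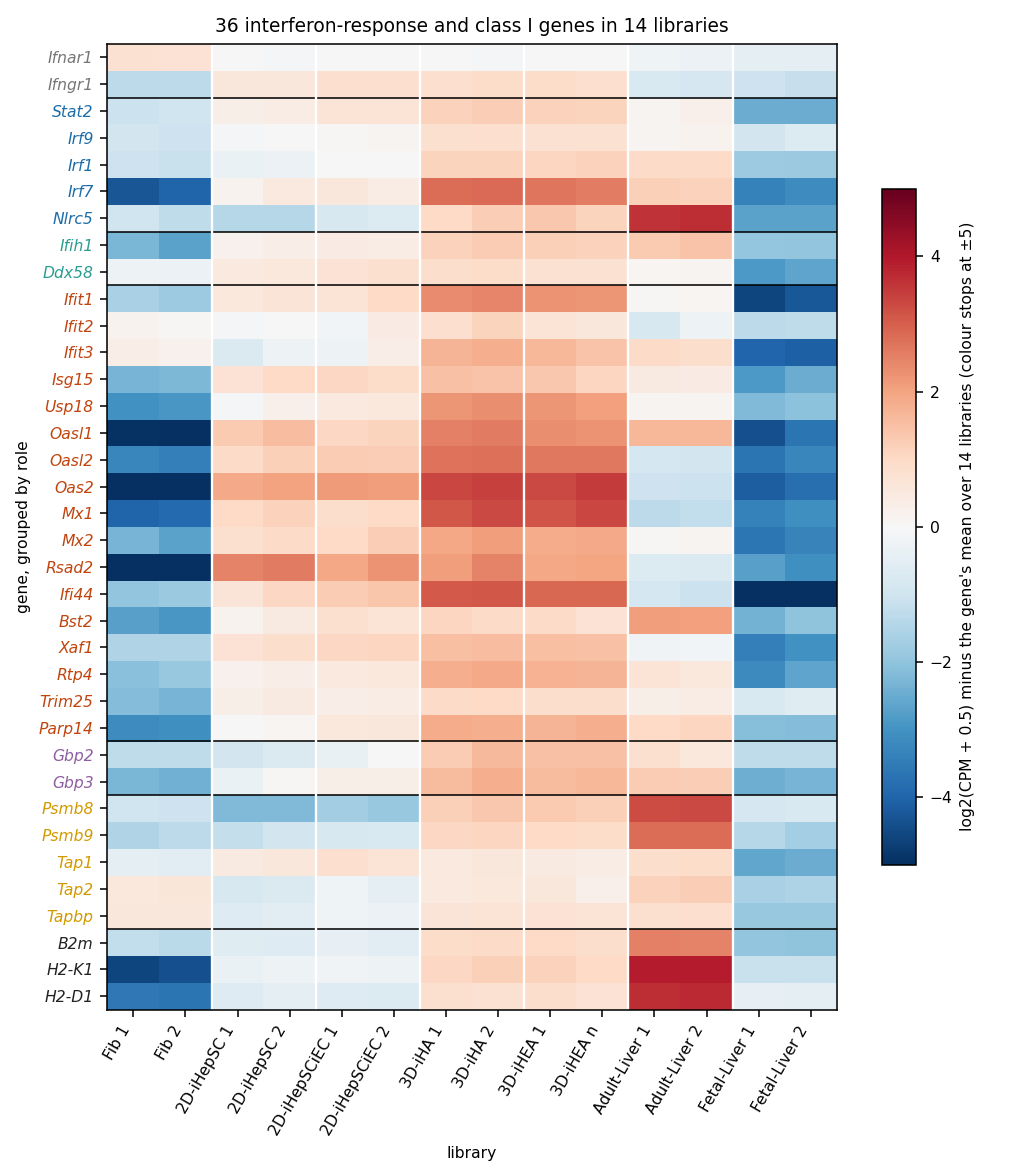
Heat map of the 36 genes (rows, grouped by role) in the 14 libraries (columns, grouped by condition), coloured by log2(CPM + 0.5) minus the gene's mean over the 14 libraries, with the colour stopping at ±5; the 3D-iHEA library marked n has no replicate number. The Fetal-Liver and Fib columns are blue for most genes, the 3D-iHA and 3D-iHEA columns are red, and *H2-K1*, *H2-D1*, *Nlrc5* and *Psmb8* are darkest red in Adult-Liver.

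The first comparison asked how the genes differed between the 4 libraries of 3D culture and the 4 of 2D culture, whether or not iECs were present. Of the 36 genes, 33 were higher in 3D, none was lower, and *Ifnar1*, *Rsad2* and *Tap1* did not pass the test (edgeR quasi-likelihood test, Benjamini-Hochberg adjusted p under 0.05). Among all 13409 genes tested, 38.7% were higher and 37.2% lower, so a call in itself was common in this comparison. The median log2 difference was 1.35 for the 36 genes and 0.01 for all genes, and 23 of the 36 were higher by at least 1 on the log2 scale, against 12.7% of all genes. In 31 of the 36 every 3D library lay above every 2D library, which held for 33.9% of all genes.

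As a role, the receptor subunits had the smallest median difference, 0.13 on the log2 scale. *Ifnar1* ran from 70.9 to 74.6 CPM in 2D and from 71.4 to 75.7 CPM in 3D, with overlapping libraries and a log2 difference of 0.05 ± 0.04 (SE). *Ifngr1* was 0.22 ± 0.07 higher in 3D (adjusted p = 0.0115).

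All 5 signalling and transcription factors were higher in 3D, with a median log2 difference of 1.31. *Irf7*, the transcription factor that amplifies type I interferon production, measured 73.1 and 91.6 CPM in 2D-iHepSC, 96.6 and 85.4 in 2D-iHepSCiEC, 462 and 463 in 3D-iHA, and 416 and 386 in 3D-iHEA. The lowest 3D library stood far above the highest 2D library, and the difference was 5.12-fold (log2 2.36 ± 0.09, adjusted p = 8.38e-10). *Nlrc5*, the transactivator of class I genes, measured 1.59 and 1.55 CPM in 2D-iHepSC, 2.68 and 2.99 in 2D-iHepSCiEC, 10.6 and 12.7 in 3D-iHA, and 13.8 and 11.5 in 3D-iHEA. It was low in every culture and again separated the formats without overlap (log2 2.52 ± 0.19, adjusted p = 2.71e-07). *Irf1*, a factor that drives interferon gamma responses, was 2.48-fold higher, and *Irf9* and *Stat2*, which belong to the ISRE-binding complex, were 1.75-fold and 1.62-fold higher. The RNA sensors *Ifih1* and *Ddx58*, which detect viral RNA in the cytoplasm, were higher by 0.91 ± 0.05 and 0.24 ± 0.07 on the log2 scale, and the *Ddx58* libraries overlapped.

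Of the 17 antiviral effectors, 16 were higher in 3D and *Rsad2* did not pass the test, with a median log2 difference of 1.40. *Mx1*, a GTPase that blocks viral replication, measured 30.6 and 34.0 CPM in 2D-iHepSC, 28.3 and 30.7 in 2D-iHepSCiEC, 135 and 152 in 3D-iHA, and 139 and 156 in 3D-iHEA. It had the largest difference of the effectors, 4.85-fold (log2 2.28 ± 0.07, adjusted p = 1.36e-10), with no overlap between formats. *Oas2*, one of the enzymes that make the oligoadenylate signal for RNA decay, measured 166 and 182 CPM in 2D-iHepSC and 194 and 193 in 2D-iHepSCiEC, and 452 and 484 CPM in 3D-iHA and 444 and 506 in 3D-iHEA. It too separated the formats fully (2.64-fold, adjusted p = 3.73e-09). The effectors next in size, on the log2 scale, were *Usp18*, which removes *Isg15* from proteins and damps the receptor, at 1.94, *Ifi44* at 1.92, *Ifit3* at 1.91, *Ifit1* at 1.65, and *Oasl2* at 1.55. The Ifit proteins bind foreign RNA. *Isg15*, the ubiquitin-like modifier that *Usp18* removes, rose by only 0.46 ± 0.09, and *Bst2*, which tethers budding virus to the cell, by 0.42 ± 0.12 with overlapping libraries.

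*Rsad2*, the radical enzyme viperin, was the effector that did not follow. It measured 121 and 134 CPM in 2D-iHepSC, 83.8 and 104 in 2D-iHepSCiEC, 92.6 and 121 in 3D-iHA, and 82.3 and 86.6 in 3D-iHEA. The libraries of the formats overlapped, and the log2 difference was -0.17 ± 0.15 (adjusted p = 0.298), although a fit of all 14 libraries called it lower, at -0.20. Beside *Ifnar1* and *Tap1* it was the only gene of the 36 that did not rise.

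The guanylate-binding proteins, GTPases that attack intracellular microbes, were both higher in 3D. *Gbp2* measured 7.36 and 8.55 CPM in 2D-iHepSC and 10.8 and 14.3 in 2D-iHepSCiEC, against 35.4 and 45.2 in 3D-iHA and 40.2 in each 3D-iHEA library. *Gbp2* was 4.08-fold higher and *Gbp3* 3.11-fold higher, without overlap of the formats.

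**Figure D2:**
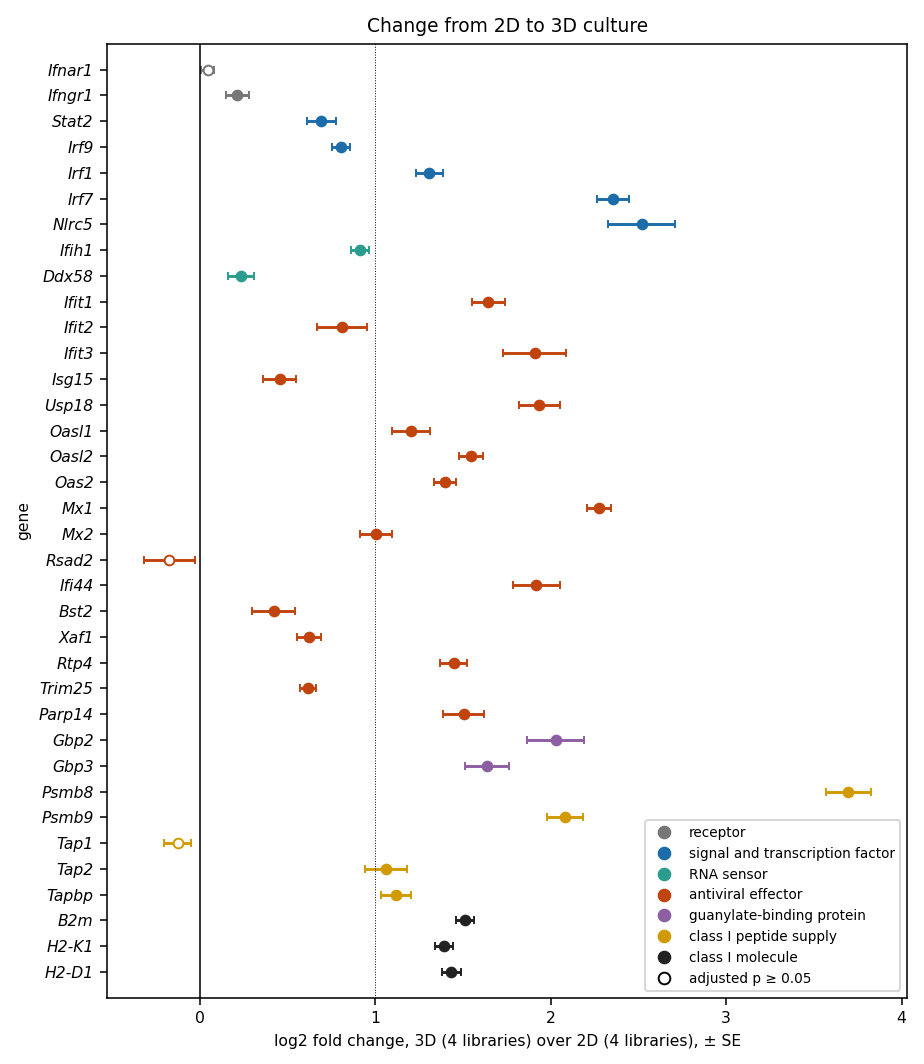
Log2 difference between 3D and 2D cultures for each of the 36 genes (points, coloured by role, with bars of 1 standard error), where open points did not pass the test, the solid line is at 0 and the dotted line at 1. The points sit right of 0 for 33 genes and reach 3.70 for *Psmb8*, whereas *Rsad2* and *Tap1* sit left of 0 and *Ifnar1* next to it, none of these 3 past the test.

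Short promoter stretches of genes that rose together, and of *Rsad2*, are shown because the ISRE and GAS letters that interferon factors bind lie in them. They are RefSeq sequences of build GRCm38.p6, written 5′ to 3′ on the strand of the gene, upstream of its start, with the matching letters in capitals. The ISRE was searched as GAAA, any pair of bases and GAAA again, and the GAS as TTCNNNGAA with N for any base, on both strands and with overlapping matches counted. The *Isg15* stretch (chr4:156200819-156201068, minus strand) held 3 overlapping ISRE matches, starting 78, 72 and 66 bases before the start. *Ifit1* (chr19:34640744-34640870, plus strand) and *Ifit3* (chr19:34583279-34583528, plus strand) each held 2, *Rsad2* (chr12:26456453-26456702, minus strand) held 1, and *Gbp3* (chr3:142559794-142560025, plus strand) held 2 that overlap. *B2m* (chr2:122147437-122147685, plus strand) held 1 ISRE match, and *Irf1* (chr11:53769764-53770013, plus strand) held 1 GAS match.
*Isg15*: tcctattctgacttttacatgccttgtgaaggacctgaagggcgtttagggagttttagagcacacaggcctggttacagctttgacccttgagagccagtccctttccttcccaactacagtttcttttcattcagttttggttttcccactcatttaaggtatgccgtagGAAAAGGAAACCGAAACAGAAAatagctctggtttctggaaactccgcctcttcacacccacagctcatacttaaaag
*Ifit1*: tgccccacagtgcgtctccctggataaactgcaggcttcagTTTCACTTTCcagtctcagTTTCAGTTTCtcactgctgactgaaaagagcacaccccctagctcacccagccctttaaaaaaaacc
*Ifit3*: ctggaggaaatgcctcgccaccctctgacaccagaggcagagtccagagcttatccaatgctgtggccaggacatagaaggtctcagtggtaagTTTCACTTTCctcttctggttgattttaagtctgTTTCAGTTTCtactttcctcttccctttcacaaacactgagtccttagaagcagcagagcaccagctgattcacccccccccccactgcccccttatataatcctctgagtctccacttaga
*Rsad2*: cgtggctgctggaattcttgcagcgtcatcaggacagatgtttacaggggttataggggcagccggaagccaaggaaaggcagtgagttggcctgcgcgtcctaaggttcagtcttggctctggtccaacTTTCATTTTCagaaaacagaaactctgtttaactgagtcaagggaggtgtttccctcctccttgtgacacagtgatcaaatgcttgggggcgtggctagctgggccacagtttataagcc
*Gbp3*: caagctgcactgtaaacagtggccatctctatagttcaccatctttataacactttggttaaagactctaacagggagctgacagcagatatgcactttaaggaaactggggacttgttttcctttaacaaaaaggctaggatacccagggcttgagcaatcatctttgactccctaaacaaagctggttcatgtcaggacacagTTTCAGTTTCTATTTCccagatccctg
*B2m*: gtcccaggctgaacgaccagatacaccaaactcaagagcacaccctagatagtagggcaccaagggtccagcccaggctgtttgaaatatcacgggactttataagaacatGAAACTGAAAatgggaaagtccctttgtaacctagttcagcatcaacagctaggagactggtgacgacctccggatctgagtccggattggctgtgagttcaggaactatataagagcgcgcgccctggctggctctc
*Irf1*: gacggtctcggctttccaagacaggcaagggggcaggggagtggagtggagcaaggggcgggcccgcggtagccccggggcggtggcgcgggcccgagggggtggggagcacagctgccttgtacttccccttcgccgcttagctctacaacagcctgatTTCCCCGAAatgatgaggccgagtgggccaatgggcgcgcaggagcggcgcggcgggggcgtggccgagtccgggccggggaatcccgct

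RefSeq windows of 250 bases before to 50 bases after the start were at hand for 28 of the 36 genes. ISRE letters were found in 11 of these 28 (39.3%), against 3.99% of 27025 gene symbols and 3.44% of 32851 windows of the same length. GAS letters were found in 5 of 28 (17.9%), against 9.55% of symbols and 8.3% of windows. The 11 genes with ISRE letters had a median log2 difference of 0.91 between 3D and 2D and 10 were higher, whereas the 13 genes with neither motif had a median of 1.21 and 12 were higher. *Rsad2*, with an ISRE match of its own, was the 1 of the 11 that was not called higher. *Bst2* held both kinds of letters. A match describes the letters only, and it is no measured binding site.

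Among the 8 peptide supply and class I molecule genes of the list, the 2 interferon-inducible proteasome subunits changed most. *Psmb8* measured 1.13 and 1.15 CPM in 2D-iHepSC, 1.79 and 1.56 in 2D-iHepSCiEC, 16.98 and 19.03 in 3D-iHA, and 18.2 and 17 in 3D-iHEA. It was 13.0-fold higher in 3D (log2 3.70 ± 0.13, adjusted p = 4.07e-10), which was the largest difference of the 36 genes. *Psmb9* measured 3.51 and 4.34 CPM in 2D-iHepSC and 4.85 and 4.91 in 2D-iHepSCiEC, against 18.27 and 19.03 in 3D-iHA and 17.99 and 16.96 in 3D-iHEA. The difference was 4.24-fold, and in both genes all 3D libraries lay above all 2D libraries. These subunits replace constitutive ones in the immunoproteasome, *Psmb8* taking the place of *Psmb5* and *Psmb9* that of *Psmb6*. Within each library, the ratio of *Psmb8* to *Psmb5* counts was 0.0274 to 0.0444 in 2D and 0.566 to 0.685 in 3D, against 0.754 to 0.803 in Adult-Liver, 0.123 to 0.134 in Fib and 0.0577 to 0.0585 in Fetal-Liver. The ratio of *Psmb9* to *Psmb6* counts was 0.0288 to 0.046 in 2D, 0.209 to 0.239 in 3D, 0.206 to 0.212 in Adult-Liver, 0.0339 to 0.0382 in Fib and 0.0127 to 0.0179 in Fetal-Liver. The constitutive *Psmb5*, *Psmb6* and *Psmb7* were all lower in 3D, with log2 differences of -0.40, -0.51 and -0.84, so both terms of each ratio moved.

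*Tap1* was the peptide supply gene that did not rise. It measured 49.9 and 54.7 CPM in 2D-iHepSC, 65.6 and 58.9 in 2D-iHepSCiEC, 51.5 and 54.9 in 3D-iHA, and 50.6 and 47.4 in 3D-iHEA. The libraries overlapped and the log2 difference was -0.13 ± 0.08 (adjusted p = 0.165), although a fit of all 14 libraries called it lower, at -0.16. *Tap1* and *Psmb9* start 225 bases apart on opposite strands, and 275 bases of their promoter windows are the same sequence, with no ISRE or GAS letters of the kind searched. The ratio of *Psmb9* to *Tap1* counts was 0.0703 to 0.0835 in the 2D libraries, 0.347 to 0.358 in 3D and 0.898 to 0.946 in Adult-Liver, and it was 0.107 and 0.129 in Fib and 0.519 and 0.373 in Fetal-Liver. The annotated exons of the 2 genes overlap by 212 bases on opposite strands, and whether the counting used strand is not given in the sources used here, so reads from that stretch may have been assigned to either gene or to none. Exons of *Psmb8*, *Tap2*, *Tapbp*, *Irf9*, *Irf1*, *Irf7*, *Nlrc5*, *Usp18*, *Oasl1*, *Gbp2*, *Rtp4* and *Parp14* also overlap those of neighbouring genes, with the same uncertainty. *Tap2*, the partner of *Tap1* in the transporter, and *Tapbp*, which loads the peptides, were higher in 3D by 1.06 ± 0.12 and 1.12 ± 0.09 on the log2 scale, without overlap.

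All 3 genes of the class I molecules were higher in 3D. *B2m*, the light chain shared by all class I molecules, measured 351 and 341 CPM in 2D-iHepSC, 392 and 369 in 2D-iHepSCiEC, 986 and 1022 in 3D-iHA, and 1053 and 978 in 3D-iHEA. *H2-K1*, a heavy chain, measured 156 and 163 CPM in 2D-iHepSC, 173 and 166 in 2D-iHepSCiEC, 405 and 447 in 3D-iHA, and 434 and 396 in 3D-iHEA. The log2 differences were 1.51 ± 0.05 for *B2m*, 1.39 ± 0.05 for *H2-K1* and 1.44 ± 0.05 for *H2-D1*, the other heavy chain. The 3 genes thus rose by a similar factor of 2.63 to 2.86, and no 3D library overlapped a 2D library in any of them. *H2-K1* and *H2-D1* resemble each other and other class I genes closely, and how shared reads were counted is not given in the sources used here, so their separate values are uncertain, as are those within the Ifit, Oas, Mx and Gbp families.

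The comparison was also made within each cell composition. Without iECs, 3D-iHA against 2D-iHepSC, 33 genes were higher and none lower, against 36.9% and 35.3% of all genes, with a median log2 difference of 1.42. With iECs, 3D-iHEA against 2D-iHepSCiEC, 30 were higher and 1 lower, against 36% and 34.9% of all genes, with a median of 1.25. The lower gene was *Tap1*, with a log2 difference of -0.31 ± 0.07 (adjusted p = 0.0011) and all 3D-iHEA libraries below all 2D-iHepSCiEC libraries. *Ifnar1*, *Ifngr1*, *Ddx58*, *Rsad2* and *Bst2* did not pass the test there. *Psmb8* led both comparisons, 16.2-fold higher without iECs and 10.6-fold higher with them, and the median over all genes was 0.01 in each.

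**Figure D3:**
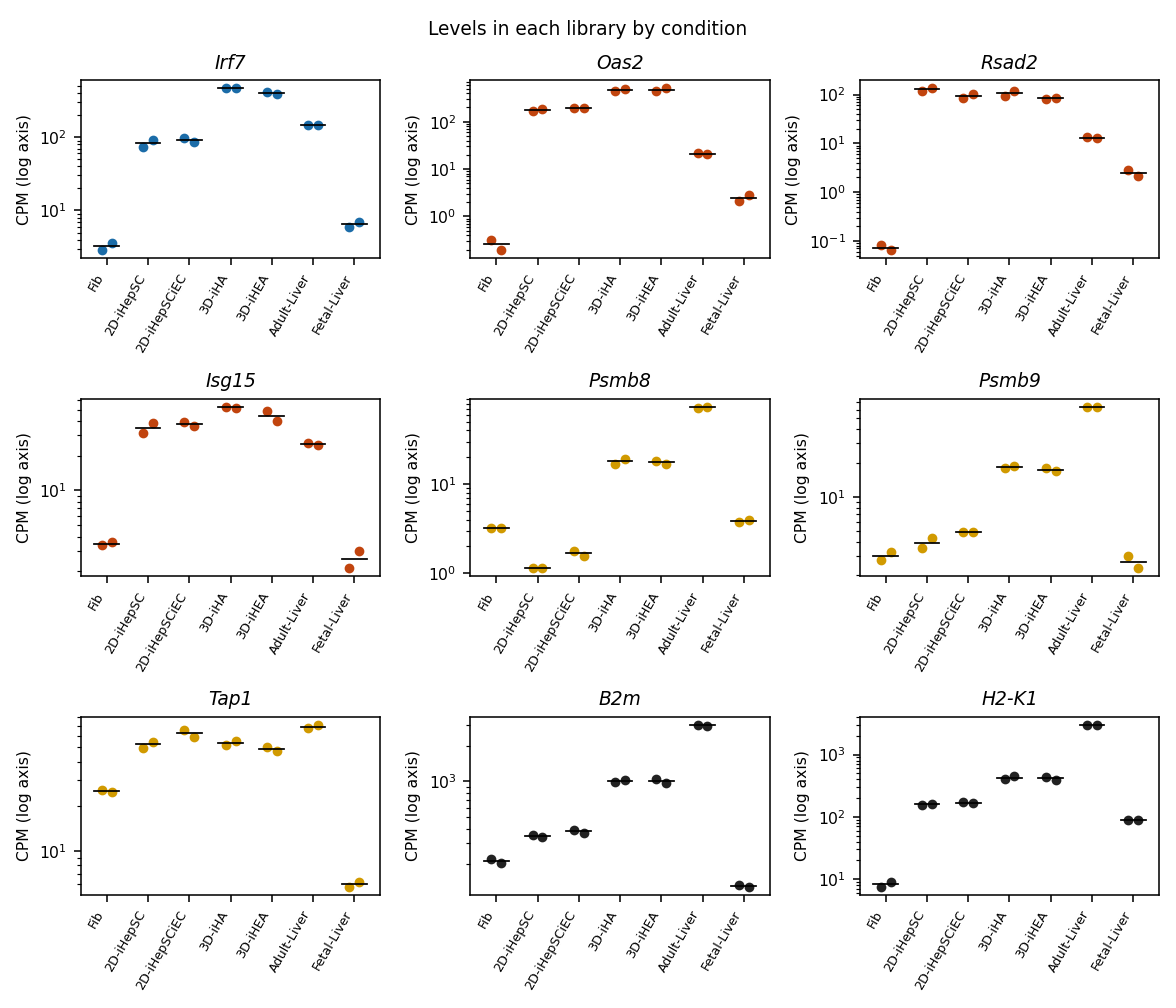
CPM of 9 of the genes in each library by condition (points, log axis), with the condition mean as a line. *Irf7*, *Oas2*, *Psmb8*, *Psmb9*, *B2m* and *H2-K1* step up from 2D to 3D, the libraries of *Rsad2* and *Tap1* overlap between 2D and 3D, and *Oas2* and *Rsad2* are under 0.4 CPM in Fib.

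The effect of adding iECs was then compared in each format. In 2D, 16 genes were higher and 2 lower in 2D-iHepSCiEC than in 2D-iHepSC, against 4.26% and 3.92% of all genes. The differences were small, with a median log2 value of 0.26 against 0.00 for all genes. The 36 genes also differed between the 2 libraries of a condition. Their mean chi-square, the squared gap between libraries over that from counting alone, was 17.4 in 2D-iHepSC, against 3.49 for all genes. In 2D-iHepSCiEC it was 11.5 against 3.36. This measure grows with the level of a gene. The 36 genes may shift together between libraries, so they are not independent of each other. *Parp14*, an ADP-ribosyltransferase, measured 58.0 and 61.1 CPM without iECs and 82.6 and 84.4 with them (log2 0.50 ± 0.06, adjusted p = 0.000286). *Stat2* measured 197 and 209 CPM without and 257 and 255 with iECs (log2 0.35 ± 0.05, adjusted p = 0.0013). In both the libraries of the 2 conditions were clear of each other. *Tapbp*, *Ifngr1*, *Irf1*, *Bst2*, *Ifi44*, *Ddx58*, *Xaf1*, *Nlrc5*, *Tap2*, *Gbp2*, *Usp18*, *Tap1*, *Rtp4* and *Gbp3* were the other genes that rose, by 0.25 to 0.85 on the log2 scale. *Rsad2* fell by 0.43 ± 0.12 and *Oasl1* fell by 0.36 ± 0.07, whereas *B2m*, *H2-K1* and *H2-D1* did not pass the test. In the same comparison 3 of 8 endothelial and 2 of 4 hepatocyte markers tested were lower and none of these was higher. Of 6 fibroblast markers tested, 1 was higher and 0 were lower. *Col1a1* of that list, named after its values were seen, had 93 counts in each 2D-iHepSC library and 441 and 234 in 2D-iHepSCiEC. The part of these markers was not tested. The counts of the 36 genes depended on single libraries. With all libraries 18 were called in either direction, against 8.17% of all genes, and leaving out any 1 of these libraries lowered the count. It fell most without 2D-iHepSC replicate 1 and least without 2D-iHepSC replicate 2. The share of all genes called in those fits is not given, so the falls cannot be set against it.

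In 3D, no gene of the 36 differed between 3D-iHEA and 3D-iHA by the edgeR quasi-likelihood test, against 1.19% higher and 1.07% lower among all genes. At an unadjusted p under 0.05 there were 9, all lower, against 6.46% of all genes lower. The DESeq2 Wald test also called 0, and 9 genes were called lower when no filter on low counts was used, against 2.17% of all genes. The log2 differences ran from -0.36 ± 0.14 for *Ifit2* to 0.13 ± 0.12 for *Nlrc5*, with a median of -0.08. Both 3D-iHEA libraries lay below both 3D-iHA libraries for 20 genes and above them for 1, against 22.2% and 16.5% of all genes. *Oasl1*, an oligoadenylate synthetase-like protein, came nearest to the threshold, at 97.3 and 102 CPM in 3D-iHA and 84.9 and 81.2 in 3D-iHEA (log2 -0.26 ± 0.07, adjusted p = 0.0823). Without 3D-iHEA replicate 1, *Isg15*, *Oasl1* and *Bst2* were called lower. That these differences missed the threshold does not show that the 3D conditions are alike. Among markers, 4 of 8 cholangiocyte and epithelial ones were higher in 3D-iHEA. Lower were 3 of 8 endothelial, 1 of 6 fibroblast and 1 of 4 hepatocyte markers, and their part was not tested.

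The difference between the effects, that is the iEC effect in 3D minus that in 2D, was tested as an interaction. It was negative and past the threshold for 9 genes and positive for none, against 1.62% and 1.52% of all genes, with a median of -0.37 for the 36 genes and -0.01 for all genes. The 9 genes were *Stat2*, *Irf1*, *Ddx58*, *Usp18*, *Ifi44*, *Bst2*, *Rtp4*, *Parp14* and *Tapbp*, at -0.32 to -0.69 on the log2 scale. In *Parp14* the effect was 0.50 in 2D and -0.07 in 3D, and the interaction was -0.57 ± 0.08 (adjusted p = 0.00252). In *Ifi44* the effect was 0.49 in 2D and -0.20 in 3D, and the interaction was -0.69 ± 0.13 (adjusted p = 0.0142). At an unadjusted p under 0.05 there were 27, all negative, against 8.51% of all genes. The DESeq2 Wald test called 14, all negative, against 2.1% of all genes, and edgeR with no filter on low counts called 23, all negative, against 2.46%. Some markers passed the main interaction test too. Of the cholangiocyte and epithelial markers 3 of 8 were positive, and 1 of 6 fibroblast markers was negative. Their part was not tested. Single libraries moved the count of the 36 genes widely. It fell without 2D-iHepSC replicate 1 or any library of 2D-iHepSCiEC or 3D-iHA. It rose without 3D-iHEA replicate 1 or the unnumbered 3D-iHEA library, and changed little without 2D-iHepSC replicate 2. The share of all genes called in these fits is not given, so the moves cannot be set against it.

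**Figure D4:**
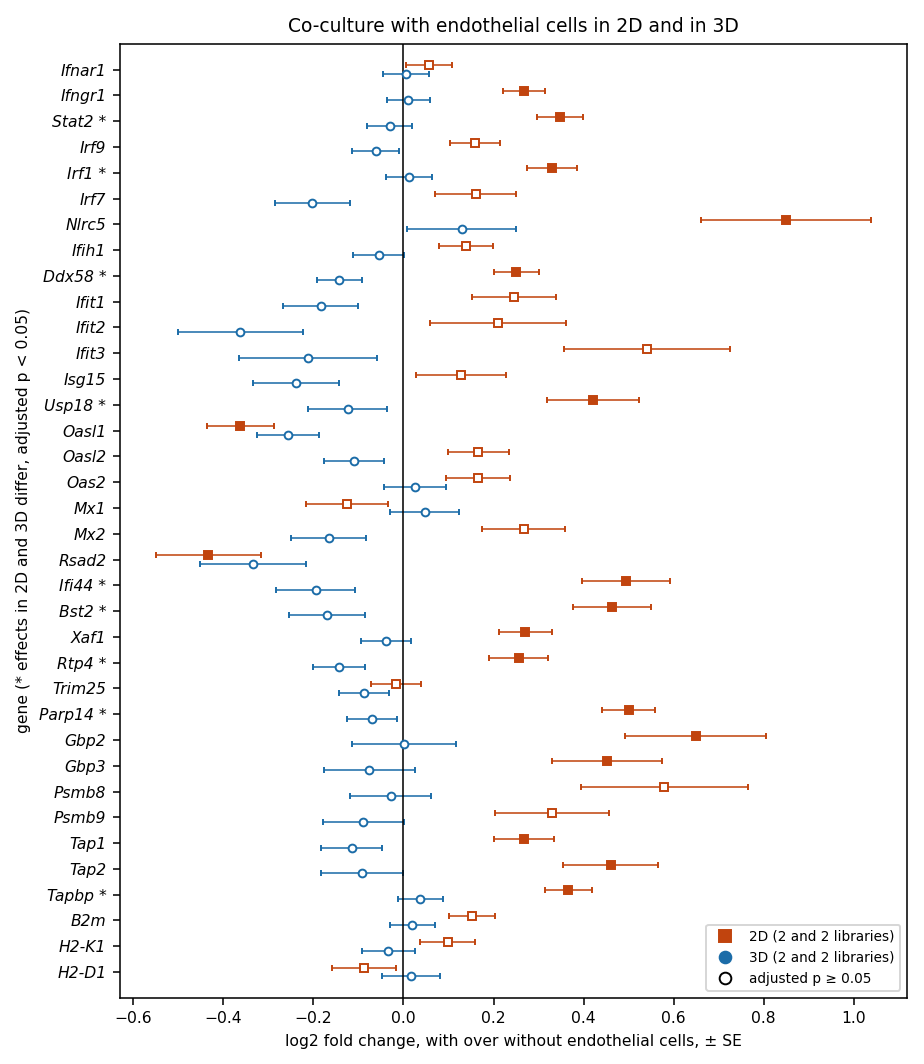
Log2 difference with over without iECs (horizontal axis) for each of the 36 genes (rows), in 2D (squares) and in 3D (circles), with bars of 1 standard error; open symbols did not pass the test, and a star marks the 9 genes past the test of the difference between formats. Filled squares sit right of 0 for 16 genes and left of it for *Oasl1* and *Rsad2*, all circles are open, and in each starred gene the square lies right of the circle.

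The monolayer cells were compared with the fibroblasts of the Fib condition, to see which of the genes already differed before 3D culture. In 2D-iHepSC, 29 genes were higher than in Fib, 5 were lower, and *Nlrc5* and *Ifit2* did not pass the test, against 45.8% higher and 38.1% lower among 14121 genes. The median log2 difference was 2.37 for the 36 genes and 0.12 for all genes. All 9 fibroblast markers tested were lower in 2D-iHepSC, summing to 26680 and 28170 CPM in Fib and 5.04 and 5.55 CPM in 2D-iHepSC, 6 of 8 cholangiocyte and epithelial markers were higher, and the part of these lists was not tested. The 2 conditions differ in reprogramming, lentiviral transduction and medium, which cannot be told apart.

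Of the 17 effectors, 15 were higher, with a median of 3.27 on the log2 scale, beside 3 of 3 class I molecule genes with a median of 3.17. *Oas2* had 0.326 and 0.194 CPM in Fib and 166 and 182 CPM in 2D-iHepSC, a log2 difference of 9.33 ± 0.16. *Rsad2* was 120.8 and 134.2 CPM in 2D-iHepSC and rested on only 5 counts over both Fib libraries, which gave a ratio of 1722 with an exact 95% counting interval of 738 to 5304. *Oasl1* rested on 3 counts over both Fib libraries, with a ratio of 1031 and an interval of 352 to 5001. Both thus had at most 3 counts in each Fib library. *Mx1* was 63.7-fold higher, *Irf7* 25.5-fold and *Oasl2* 23.4-fold. *Ifit3* was the effector that was lower, at 31.9 and 29.2 CPM in Fib and 14.9 and 21.1 CPM in 2D-iHepSC (log2 -0.77 ± 0.17).

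The class I genes divided. *H2-K1* was 7.57 and 8.91 CPM in Fib and 156 and 163 CPM in 2D-iHepSC, a 19.4-fold difference, and *H2-D1* was 9.02-fold higher. *B2m* was already abundant in Fib, at 223 and 207 CPM, and was 1.61-fold higher. Of the peptide supply genes, *Psmb9* and *Tap1* were higher and *Psmb8*, *Tap2* and *Tapbp* were lower, with log2 differences of 0.39, 1.04, -1.50, -1.35 and -1.15. *Psmb8* had 3.26 and 3.24 CPM in Fib and 1.13 and 1.15 CPM in 2D-iHepSC. These 3 genes that were lower in the monolayer than in Fib were higher again in the 3D cultures than in 2D, by the differences given above. *Ifnar1* fell by 0.79 ± 0.05 and *Ifngr1* rose by 1.90 ± 0.06.

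The livers set the range of the tissue. In Adult-Liver against Fetal-Liver all 36 genes were higher after TMM scaling, whereas 31 were higher and 5 (*Ifnar1*, *Ifngr1*, *Irf9*, *Ifit2* and *Trim25*) lower when library totals were used. Among all genes 40.8% were higher and 42.9% lower after TMM scaling. Library totals moved the median over all genes by -1.48, and no share of all genes is given for that scaling. The median log2 difference was 3.32 for the 36 genes against -0.06. *H2-K1* measured 90.5 and 89.6 CPM in Fetal-Liver and 2983 and 2996 CPM in Adult-Liver, *B2m* 135 and 130 CPM against 2994 and 2935, and *Nlrc5* 0.364 and 0.368 CPM against 66.9 and 70.9. The adult value was far above the fetal one in each, and *Nlrc5* had the largest log2 difference, 7.54 ± 0.18. Leukocyte, hepatocyte and erythroid markers also differed between these tissues, the erythroid markers summing to 32280 to 34390 CPM in Fetal-Liver and 586 to 637 CPM in Adult-Liver, and their part in the result was not tested.

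Against Adult-Liver, the 3D cultures were higher for 25 genes and lower for 11, against 45.7% and 40.7% of all genes, with a median log2 difference of 0.75 against 0.10. Of the effectors, 16 of 17 were higher and *Bst2*, which changed direction with library totals, was lower. All 5 peptide supply genes and all 3 genes of the class I molecules were lower, of which *Tap1*, *Tap2* and *Tapbp* changed direction with library totals. *Mx1* measured 5.73 and 6.25 CPM in Adult-Liver, against 135 to 156 CPM in 3D, a 24.3-fold difference, and *Oas2* was 22.3-fold higher at 444 to 506 CPM against 21.4 and 20.9. *H2-K1* was at 2983 and 2996 CPM in Adult-Liver and 396 to 447 CPM in 3D, 7.11-fold lower, and *B2m* was 2.94-fold lower. *Psmb8* was 72.0 and 73.8 CPM in Adult-Liver and 16.98 to 19.03 CPM in 3D, 4.09-fold lower, and *Nlrc5* was 5.66-fold lower. No 3D library overlapped an adult one in any of the 36 genes, and among all genes 47.2% had every 3D library higher and 41.7% every one lower.

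With library totals in place of TMM, where the median over all genes moved by 1.52 on the log2 scale, the split was 30 higher and 5 lower. The shares of all genes given above belong to TMM scaling, and none is given for library totals, so this split has no background beside it. *Tap1*, *Tap2*, *Tapbp*, *Bst2* and *Ifih1* then changed direction, to 1.08, 0.76, 1.36, 0.36 and 1.34, and *B2m* no longer passed (log2 -0.04). *Psmb8*, *Psmb9*, *H2-K1*, *H2-D1* and *Nlrc5* stayed lower in 3D. Marker levels also moved with this comparison, and their part in it was not tested. After TMM scaling, hepatocyte markers stood at 595000 to 634500 CPM and leukocyte markers at 1942 to 2031 CPM in Adult-Liver. In the cultures they stood at no more than 388 and 32.4 CPM.

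**Figure D5:**
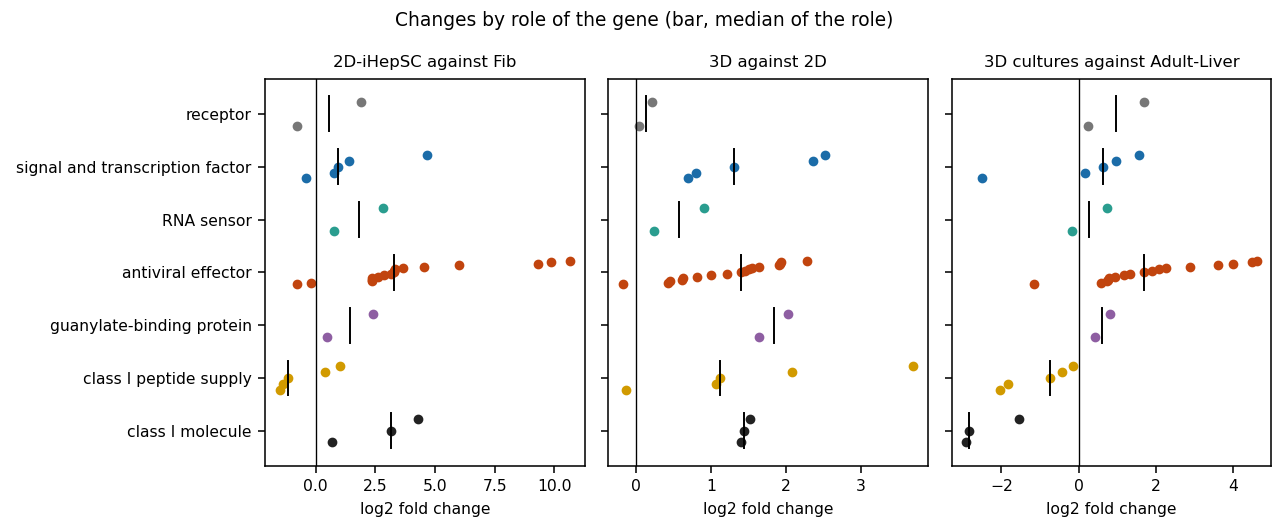
Log2 differences (horizontal axes, each panel on its own scale) of the 36 genes (points) by role (rows) in 3 comparisons, with the median of each role as a bar; the points of *Rsad2* and *Oasl1* in the Fib panel are fitted values that rest on few Fib counts. In 3D against 2D the points lie right of 0 but for *Rsad2* and *Tap1*, and in 2D-iHepSC against Fib the peptide supply genes lie on both sides. In 3D against Adult-Liver 16 of 17 effectors lie right of 0 and the class I genes left of it, where *Tap1*, *Tap2* and *Tapbp* change direction when library totals replace TMM.

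Other genes of the pathway, from lists that hold none of the 36, were counted in 3D against 2D, where 38.7% of all genes were higher and 37.2% lower. None of 21 interferon genes passed the filter, and their summed counts were 0 to 21 per library over all conditions. Most of these in 2D-iHepSC came from *Ifne*, interferon epsilon, named after its values were seen, with 17 and 16 counts in 2D-iHepSC, 10 and 2 in 2D-iHepSCiEC and 2 to 4 in each 3D library. *Ifnb1*, which encodes interferon beta, had 0 to 6 counts in each culture library. Of 13 other receptor and JAK-STAT genes, 9 were higher and 2 lower, led by *Ifnlr1*, a subunit of the lambda interferon receptor, at 1.67 and *Socs3*, a feedback inhibitor, at 1.12 on the log2 scale. Of 16 tested sensing and induction genes, 11 were higher and 4 lower. *Zbp1*, a sensor of Z-form nucleic acid, was higher by 3.11 and *Tmem173*, which encodes the DNA-sensing adaptor STING, by 1.84, whereas *Irf5* was lower, at -1.83.

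Of 59 tested other interferon-stimulated genes, 2 passed the filter only through the 3D libraries, and of the other 57, 42 were higher and 10 lower, with a median log2 difference of 0.99, against 38.7% and 37.2% of all genes, the background for each list that follows. *Ifit1bl1*, *Slfn5* and *Ifitm3* led at 6.04, 5.24 and 4.87, *Ifitm3* being a membrane protein that blocks virus entry. In each 2D library these genes had only 38 to 52, 10 to 26 and 14 to 20 counts. The chemokine genes *Cxcl10* and *Ccl5*, picked here after their values were seen, were lower, at -1.55 and -1.34. Of 13 tested other interferon-inducible GTPases, *Gbp8* and *Gbp11* passed the filter only through the 3D libraries, and the other 11 were all higher, with a median of 2.68. *Gbp8* had 1 to 3 counts in each 2D library and 45 to 64 in each 3D library. *Gbp11* had 2 to 10 counts in each 2D library and 69 to 138 in each 3D library. No fold is given for *Gbp8* or *Gbp11*. *Tgtp2* was at 4.38, on at most 10 counts in each 2D library. Of 21 tested other class I pathway genes, 1 passed the filter only through the 2D libraries, and of the other 20, 15 were higher and 3 lower. *Fcgrt*, the neonatal Fc receptor, was at 3.89 and *H2-T24*, a non-classical class I gene, at 3.82. They had only 6 to 14 and 5 to 25 counts in each 2D library. Only 3 of 9 class II pathway genes could be tested, and all 3 were higher. *Ctss*, a protease of antigen processing, was at 6.81 and *Cd74*, the invariant chain, at 3.37, on 8 to 16 and 8 to 27 counts in each 2D library.

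Among the 16 leukocyte markers 5 could be tested, of which 1 passed the filter only through the 2D libraries, and of the other 4, 1 was higher and 2 lower in 3D. The higher one was *Laptm5*, named here after its values were seen, at 0.324 to 0.621 CPM in the 2D libraries and 6.90 to 10.4 CPM in 3D. Most of the summed level of the list in the cultures came from *Cd68*, at 17.9 to 23.1 CPM. The part of these markers in the differences of the 36 genes was not tested. Of 10 endothelial markers 8 were tested, and 2 of them, *Flt1* and *Pecam1*, passed the filter only through the 3D libraries in which they were higher. Of the other 6, 4 were higher in 3D and 2 did not pass the test, and *Kdr*, which was filtered out, had 10 to 25 counts per 2D library against 0 to 4 per 3D library; these 3 genes were named after their values were seen. None of the 8 was higher and 3 were lower with iECs, both in 2D (against 4.26% and 3.92% of all genes) and in 3D (against 1.19% and 1.07%). The summed level of this list was 410 to 474 CPM in the 2D libraries and 865 to 1334 CPM in the 3D libraries, without overlap. Most of the 2D sum came from *Cdh5*, with 9451 to 16261 counts per 2D library and 10322 to 14321 per 3D library. *Vwf* had 363 to 1010 and 11946 to 25206, and both genes were named after their values were seen. The part of this list in the differences of the 36 genes was not tested. Of 4 tested hepatocyte markers 1 passed the filter only through the 3D libraries, and of the other 3, 1 was higher and 2 did not pass the test, with *Ttr* at 1.27 to 2.70 CPM in 2D and 74.8 to 86.0 CPM in 3D. Of 8 cholangiocyte and epithelial markers 3 were higher and 4 lower, with a median log2 difference of -0.20. *Epcam* was at 11.1 to 14.9 CPM in 2D and 203 to 329 CPM in 3D. *Krt18*, by contrast, had 15022 to 26261 counts in each 2D library and 11167 to 13612 in each 3D library. *Ttr*, *Epcam* and *Krt18* were named after their values were seen, and the part of these lists was not tested either.

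Outside the 36 genes, those whose level over the 7 condition means was most like the mean z-score of the 36 genes were *B4galnt1* (Pearson's r = 0.994), *Zbtb43* (0.992) and *Map3k5* (0.990). These are correlations over 7 means that share library depth and scaling, given as a description.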

How the data were processed

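RNA-seq libraries of 7 conditions, 2 each, were analysed from the deposited table of whole-number read counts per gene. Per the labels and the study's methods, the authors trimmed 150-base reads with Trimmomatic 0.36, aligned them with HISAT2 to mm10 and counted them with HTSeq (the processing notes also name Cufflinks); whether the counting used strand, and how shared reads were treated, is not given in the sources used here. Library totals were 20851489 to 35143325, and intervals cover counting error only.

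Genes whose log2(count + 1) averaged 3 or more across the libraries fitted were tested with the edgeR 4.0.16 quasi-likelihood test (R 4.3.3) after TMM normalization, in a fit of the 8 culture libraries or, for Fib and the livers, of all 14, with Benjamini-Hochberg adjustment over all genes tested and a threshold of 0.05. Standard errors are the log2 difference over the square root of F. The code was tested on simulated data. The members and lists were chosen with earlier results of these data known. Any of the 36 genes could be named, with at most 3 genes per pathway list by size of change (others are said to be chosen after their values were seen) and the 3 genes outside the lists most like the mean profile. Alternatives were DESeq2 1.42.0, other scalings, filters and fits, and leaving out each library. Positions came from GENCODE mouse release 21 and promoters from RefSeq, GRCm38.p6. 1 of the 3D-iHEA columns carries no clear replicate number.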

Additional observations from a re-analysis of the deposited data

Results flagged for a closer look

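Of 72 groups of 4 culture libraries tested for a library far from the others, 1 was flagged, where chance flags about 5 percent of such groups. *Ifih1* measured 93.23 CPM in 3D-iHA replicate 2, against 85.74 to 86.52 CPM in the other 3D libraries, a gap of 0.896 of the whole range and beyond Dixon's critical value for 4 samples.

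The effect of adding iECs differed between 3D and 2D, by the interaction test of edgeR, for 9 genes. On the log2 scale the 3D effect minus the 2D effect was -0.378 for *Stat2*, -0.318 for *Irf1* and -0.393 for *Ddx58*. It was -0.545 for *Usp18*, -0.689 for *Ifi44*, -0.632 for *Bst2* and -0.399 for *Rtp4*, and it was -0.57 for *Parp14* and -0.329 for *Tapbp*. In each the 2D effect was positive and past the threshold, and the 3D effect was not past it.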

How the results depend on the processing

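The counts of genes called stayed within 1.5 times the value given under every setting run, with these exceptions. Testing against a log2 difference of 1 instead of 0 gave 19 genes for 3D against 2D, 20 for 3D-iHEA against 2D-iHepSCiEC, 20 for 3D against Adult-Liver, and 0 for both the 2D iEC comparison and the interaction. With no filter on low counts, 9 genes were called for 3D-iHEA against 3D-iHA, all lower, and 23 for the interaction, and the DESeq2 Wald test called 14 for the interaction. Leaving out each library in turn gave 5 to 14 genes for 2D-iHepSCiEC against 2D-iHepSC, 0 to 3 for 3D-iHEA against 3D-iHA and 1 to 22 for the interaction, where the lone library of a condition was assumed to vary like the others. The cause of these moves was not tested.

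With library totals in place of TMM, *Ifnar1* (-1.26), *Ifngr1* (-1.19), *Irf9* (-0.54), *Ifit2* (-0.65) and *Trim25* (-0.45) changed direction in Adult-Liver against Fetal-Liver. With all 14 libraries in the fit of 3D against 2D, 33 genes were higher and 2 lower, *Rsad2* and *Tap1*.

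Same-numbered libraries did not deviate together: of 15 pairs, with correlations of -0.136 to 0.122, 1 was over 0.1. With a replicate block, 33 genes were called for 3D against 2D, 34 for 3D-iHA against 2D-iHepSC, 24 for 2D-iHepSCiEC against 2D-iHepSC (23 in the same libraries without the block, a fit added after seeing the data), 34 for 2D-iHepSC against Fib, 36 for the livers and 35 for 3D against Adult-Liver. No paired analysis was possible for 3D-iHEA against 2D-iHepSCiEC, 3D-iHEA against 3D-iHA and the interaction because 3D-iHEA has 1 numbered library. With 2 libraries a condition, small differences such as those of the iEC comparisons may be missed.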
